A study of Mus musculus with 288 samples.

Results

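The heat shock chaperones examined here are 10 genes, taken by name from the 35904 genes measured in each library, and followed across 6 tissues, both treatments and 8 time points. They are the HSP70 genes Hspa1a, Hspa1b and Hspa8, the HSP110 gene Hsph1, the HSP90 genes Hsp90aa1 and Hsp90ab1, the HSP40 gene Dnajb1, the small heat shock protein gene Hspb1, and the mitochondrial chaperonin genes Hspd1 and Hspe1. The animals were male C57BL/6J mice of 8 weeks that breathed either room air (normoxia) or intermittent hypoxia (IH), in which oxygen was cycled between 21% and 8% during the inactive phase, for 7 days. Both treatments were then followed by constant darkness in normoxia, and tissues were taken on day 2 of darkness, so all libraries come from animals breathing room air at the time of collection. Lung, liver, kidney, muscle, heart and cerebellum were collected every 3 hours from circadian time (CT) 1:30 to CT 22:30 (hours and minutes, while fitted peak times are given in decimal hours), with CT 12 as the start of the subjective night when mice are active. There were 3 libraries per time point and 24 in each of the 12 groups of tissue and treatment. The measured unit was TPM, the share of transcripts per length scaled to a fixed sum in each library.

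Heat shock proteins hold newly made or unfolded proteins and help them fold. HSP70 binds exposed stretches of a client protein, HSP40 delivers the client and drives the ATP cycle of HSP70, HSP110 exchanges its nucleotide, and HSP90 takes over partly folded clients such as kinases and steroid receptors. Hspa1a, Hspa1b, Dnajb1, Hsph1 and Hspb1 are classical targets of heat shock factor 1 (HSF1), which binds repeats of the unit nGAAn and responds to heat and protein damage, while Hspa8 and Hsp90ab1 are the constitutive forms. Hspd1 and Hspe1 encode HSP60 and HSP10, the barrel and lid of the mitochondrial folding chamber. In mice the expression of HSF1 targets is known to follow the daily cycle of body temperature and feeding.

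The letters upstream of 7 members were read from RefSeq (GRCm38.p6), which held no entry for Hspa8, Hsp90aa1 and Hsp90ab1. Hspa1a (chromosome 17, 34969190 to 34972156, minus strand, a gene of 1 exon) and Hspa1b (chromosome 17, 34956436 to 34959238, minus strand, 1 exon) lie next to each other, and the 250 bases before their starts differ at 3 positions and are 98.8% identical. The stretches, at chr17:34972157-34972406 and chr17:34959239-34959488 on the minus strand, are shown because these genes gave the clearest daily peak, with the short heat shock element (GAANNTTC, 2 units) in capitals.
Hspa1a: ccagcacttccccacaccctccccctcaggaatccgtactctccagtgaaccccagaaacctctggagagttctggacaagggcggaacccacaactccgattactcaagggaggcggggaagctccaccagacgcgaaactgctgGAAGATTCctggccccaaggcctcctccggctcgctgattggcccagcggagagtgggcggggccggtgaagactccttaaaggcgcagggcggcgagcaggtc
Hspa1b: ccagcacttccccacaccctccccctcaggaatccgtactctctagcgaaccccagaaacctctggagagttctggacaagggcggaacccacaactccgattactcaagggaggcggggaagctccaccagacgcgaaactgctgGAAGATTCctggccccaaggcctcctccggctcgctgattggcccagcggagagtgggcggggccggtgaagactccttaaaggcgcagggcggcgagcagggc

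The genes Hspd1 (chromosome 1, 55077835 to 55088243, minus strand, 12 exons) and Hspe1 (chromosome 1, 55088132 to 55091307, plus strand, 4 exons) start head to head and overlap by 112 bases. The 30 bases at chr1:55088053-55088082 (plus strand) hold 4 units in a row, in capitals. They end 50 bases before the start of Hspe1 and lie inside an annotated exon of Hspd1, downstream of its start. Of the 2 RefSeq windows for Hspd1, 1 holds this element and the other holds 0 matches. The stretch is shown because it lies near the starts of both genes while their transcripts moved apart in the heart. The search for 3 units used GAANNTTCNNGAA and TTCNNGAANNTTC on both strands, and 0.603% of 32851 promoter windows of 300 bases held a match, against 15.1% for the short form of 2 units (GAANNTTC or TTCNNGAA, which the longer form contains).
Hspe1 and Hspd1: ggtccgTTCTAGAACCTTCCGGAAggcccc
Hsph1: gctgcagaTTCTGGAAAGTTCtcctcagta
Hspb1: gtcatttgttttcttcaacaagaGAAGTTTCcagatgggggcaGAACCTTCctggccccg

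The Hsph1 stretch (chr5:149636279-149636308, minus strand, in the first exon of a gene of 19 exons) holds a match of 3 units downstream of the start. The Hspb1 stretch (chr5:135887779-135887838, plus strand, upstream of a gene of 3 exons) holds 2 short matches. Dnajb1 held 0 matches of either form in its windows. A match is a run of letters, and binding by HSF1 was not measured.

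Several members share sequence with other genes, which bears on how reads can be assigned to them. Of the 31-base words of the Hspa1a transcript 63.8% were also found in Hspa1b, and of those of Hspa1b 67.5% were found in Hspa1a, so the split between this pair is uncertain and the genes are described side by side. For Hspb1, 65.4% of words occurred in another gene, mainly the pseudogene Hsp25-ps1, which was listed at a mean of 46.4 TPM in muscle under normoxia. Most words of Hspa8 (79.7%), Hsp90aa1 (62.9%), Hspe1 (59.1%) and Hspd1 (55.8%) also occurred elsewhere, while Hsph1 shared 0 words.

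The tissues carried their own markers: none of the 6 markers of any tissue averaged under 0.5 TPM in its own libraries. In 5 libraries, all after IH, the summed own-tissue markers were below 1/3 of the tissue median. They were cerebellum CT 1:30 replicate 3 (430 TPM against a median of 4909), liver CT 13:30 replicate 2 (1186 against 57138), and lung CT 1:30 replicate 2, CT 7:30 replicate 2 and CT 10:30 replicate 1 (34723, 44059 and 46710 against 167998). Results were computed with and without these 5. The number of genes above 0 TPM was higher after IH in the lung (25455 ± 1529 against 22694 ± 737, SD, n = 24 each) and lower in the heart (21447 ± 688 against 25124 ± 1719). The labels do not say that libraries of one number came from one animal across tissues, nor whether RNA was handled in batches.

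The first question was how much of each chaperone a tissue held under normoxia. TPM is scaled per transcript length, so levels can be set side by side between genes. Hspa8, the constitutive cytosolic HSP70, was among the most abundant members in each tissue, from 1574 ± 533 TPM in the kidney to 515 ± 118 TPM in the heart (SD, n = 24 each), and no neighbours in this order differed by more than the larger SD. The inducible forms were far lower. Hspa1b averaged 26.9 TPM in the kidney, 16.1 in the lung, 12.4 in the liver, 4.42 in muscle, 3.92 in the cerebellum and 3.71 in the heart. For Hspa1a the means were 14.3 in the kidney, 11.3 in the lung and 1.15 TPM in the liver, where it averaged under 1 TPM over both treatments and was not tested. The SD of Hspa1a and Hspa1b was as large as the mean in the kidney, lung and liver, with a few libraries far above the others, and neighbouring tissues did not differ beyond that spread.

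**Figure D1:**
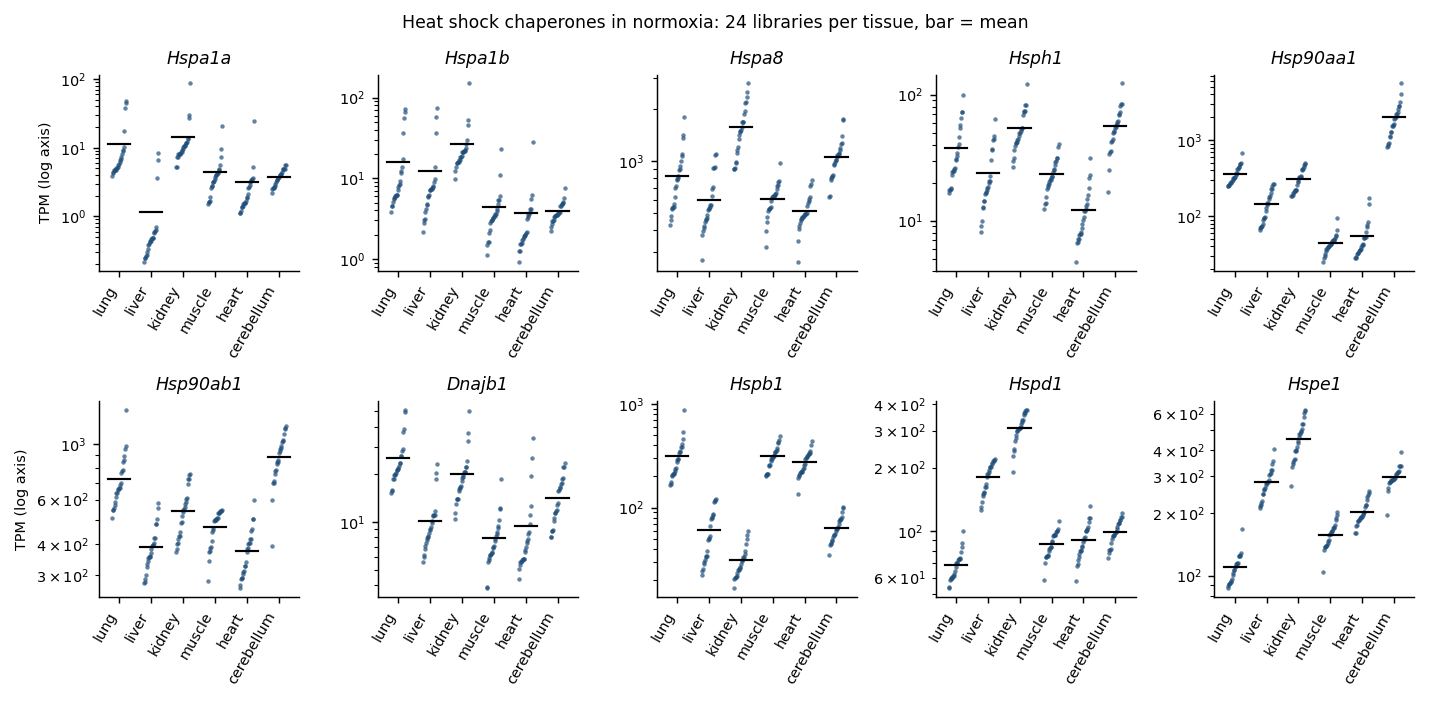
Level of each chaperone under normoxia on a log10 axis of TPM, by tissue, with points for the 24 libraries of a tissue and a bar at their mean. Hsp90aa1 spans 44.9-fold between its highest tissue, the cerebellum, and its lowest, muscle, while Hsp90ab1 spans 2.35-fold.

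Hsp90aa1, the inducible HSP90, had the widest spread among tissues. Its mean was 2011 ± 1120 TPM in the cerebellum, 361 ± 106 in the lung, 311 ± 103 in the kidney, 144.03 ± 66.6 in the liver, 54.6 ± 35.5 in the heart and 44.8 ± 14.5 in muscle, a range of 44.9-fold. The steps from cerebellum to lung, from kidney to liver and from liver to heart were larger than the larger SD, and the others were not. Its partner Hsp90ab1, the constitutive HSP90, ranged 2.35-fold, from 884 TPM in the cerebellum to 376 TPM in the heart. In the cerebellum Hsp90aa1 lay between 808 and 5588 TPM in single libraries, with the 3 libraries of CT 4:30 at 5588, 4109 and 3174 TPM. The same 3 libraries had summed heart markers of 2682, 1415 and 2517 TPM, against a median of 661 over the 24, and cerebellum markers of 2399, 3421 and 3399 TPM against a median of 4593. The part of this make-up in the Hsp90aa1 values was not tested.

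Hspb1 (HSP27), which protects actin filaments, separated the tissues into high and low groups. It averaged 313 TPM in muscle, 313 in the lung and 276 in the heart, against 64.1 in the cerebellum, 60.2 in the liver and 31.01 TPM in the kidney, and the step from heart to cerebellum exceeded the larger SD. The chaperonin genes had the kidney first: Hspd1 averaged 308 ± 49.3 TPM there and Hspe1 455 ± 96.9 TPM, against 68.7 ± 11.1 and 109 ± 18.0 TPM in the lung, which was lowest for both. Hsph1 was highest in the cerebellum (56.8 TPM) and kidney (54.8 TPM) and lowest in the heart (12.1 TPM), and Dnajb1 ran from 25.2 TPM in the lung to 7.93 TPM in muscle. In bulk tissue, fewer cells of a type and less RNA per cell cannot be told apart.

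Next, the mean 24-hour expression of the chaperones was compared between IH and normoxia in each tissue. The direction differed by organ: in the lung 7 of 10 members were lower after IH and 0 higher, while in the heart 6 of 10 were higher and 1 was lower. In the liver 2 of 9 were lower, in the kidney 1 of 10 was higher, and in muscle and cerebellum 0 of 10 passed. These counts use an adjusted p of 0.05 (limma on log2 of scaled TPM, Benjamini-Hochberg within the tissue). By the same rule 28.9% of all tested lung genes were higher and 41.5% lower, and of all heart genes 28.0% were higher and 17.3% lower. The shares higher and lower were 10.9% and 13.3% for liver genes, 8.25% and 11.5% for kidney genes, 5.48% and 4.89% for muscle genes, and 9.76% and 5.24% for cerebellum genes. In all, 17 of 59 tested pairs of member and tissue passed.

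When a 1.5-fold change was also required, 3 of 59 pairs remained, Hsp90aa1 in the lung and Hspa1a and Hspa1b in the heart. Over all tested genes this stricter rule called 13.48% of lung, 2.95% of heart, 3.65% of liver, 0.783% of kidney, 0.374% of muscle and 2.64% of cerebellum genes.

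**Figure D2:**
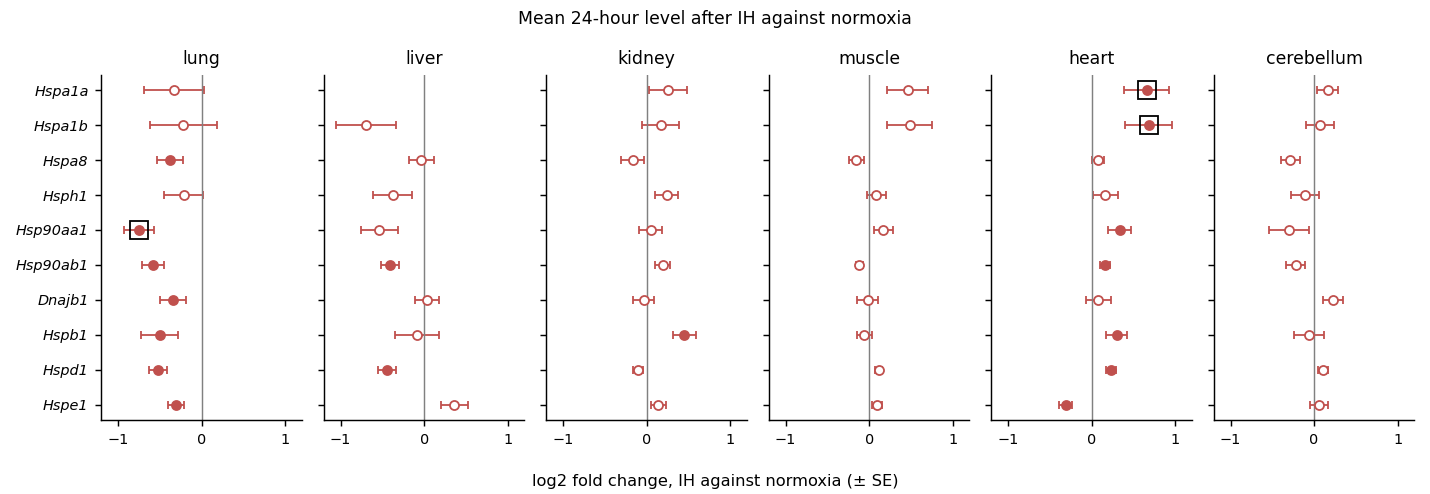
Log2 fold change of each chaperone after IH relative to normoxia (bars: 1 SE; 24 libraries of each treatment) in each tissue; positive values are higher after IH, filled points passed the adjusted p, and squares mark those also past 1.5-fold. In the lung the 10 values lie below 0, and in the heart 9 of 10 lie above 0 with Hspe1 below.

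In the lung the largest fall was in Hsp90aa1. Its TPM under normoxia had a lowest, median and highest value of 246, 322 and 685, and after IH of 95.5, 283 and 539, so that 10 of 24 libraries after IH lay under the lowest normoxia library and the rest overlapped. The log2 fold change was -0.75 with an SE of 0.18 and a limma adjusted p of 0.000326. The other HSP90, Hsp90ab1, fell by 0.58 on the log2 scale (limma adjusted p = 0.00019), with 9 of 24 libraries under the normoxia range of 507 to 1366 TPM. Leaving out each of the 48 lung libraries in turn kept the call of Hsp90aa1 in all, with log2 fold changes from -0.79 to -0.68.

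Among the HSP70 machinery of the lung, Hspa8 had a log2 fold change of -0.38 (limma adjusted p = 0.0266) and its co-chaperone Dnajb1 of -0.35 (0.041). Hspa1a (-0.33), Hspa1b (-0.22) and Hsph1 (-0.21) did not pass, with limma adjusted p of 0.405, 0.63 and 0.421. The small heat shock protein Hspb1 had -0.50 (0.0403). Both chaperonin genes fell, Hspd1 by 0.52 (limma adjusted p = 4.37e-05) and Hspe1 by 0.31 (0.00353).

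The size of these lung changes depended on what they were measured against. The values above are relative to the median gene of each library, and with TPM as deposited the median of all tested lung genes was 0.28 higher on the log2 scale. On that scale 1 of 10 lung members passed, Hsp90aa1 (-0.44, limma adjusted p = 0.0234), and Hspe1 and Hspa1b were at 0.00 and 0.06. When the number of genes above 0 TPM was added as a term, 6 of the 7 lung members changed sign and the seventh, Hspe1, stayed lower. With that term Hspa1a (1.27, limma adjusted p = 0.0238) and Hspa1b (1.55, 0.0157) were called higher in the lung past 1.5-fold, as was Hspb1 (0.82, 0.00582), so 3 of 10 were higher and 1 was lower. Without the 3 lung libraries of low lung markers, 4 of 10 members passed (Hsp90aa1 -0.56, Hsp90ab1 -0.45, Hspd1 -0.39 and Hspe1 -0.34), and 0 of them reached 1.5-fold. The summed lung markers were also lower after IH, with a median of 147679 TPM (range 34723 to 205406) against 170903 (136272 to 264341), and their part in the chaperone values was not tested.

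The replicate numbers also differed. The lung change of Hsp90aa1 was -1.02, -0.93 and -0.28 among libraries numbered 1, 2 and 3, that of Hspd1 was -0.73, -0.73 and -0.11, and that of Hspa8 was -0.76, -0.46 and 0.09. Of the 17 pairs that passed, 11 had the same direction in each of the 3 numbers.

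In the heart the inducible HSP70 genes rose. Hspa1b had a lowest, median and highest value of 0.918, 2.06 and 28.0 TPM under normoxia and of 1.36, 3.61 and 53.1 TPM after IH, and Hspa1a of 1.13, 1.90 and 24.7 against 1.24, 3.32 and 44.7 TPM. The ranges overlapped, but 23 of 24 libraries after IH lay above the normoxia median for Hspa1b and 22 of 24 for Hspa1a. The log2 fold changes were 0.68 (SE 0.28, limma adjusted p = 0.0409) and 0.66 (SE 0.27, adjusted p = 0.0414). Both calls are close to the thresholds of adjusted p and 1.5-fold. Leaving out 1 library lost the joint call in 16 of 48 cases for Hspa1b and 18 of 48 for Hspa1a. The lowest log2 fold changes were then 0.54 and 0.52. The limma adjusted p rose to at most 0.0706 and 0.0714, reached without IH CT 16:30 replicate 1, the library with the highest level.

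Smaller rises passed for the other heart members. Hsp90aa1 had a log2 fold change of 0.34 (limma adjusted p = 0.0419), Hspb1 of 0.30 (0.0499), Hspd1 of 0.23 (0.000639) and Hsp90ab1 of 0.16 (0.0207). Hspb1 was above the highest normoxia library, 444 TPM, in 7 of 24 libraries after IH, and Hspd1 was above 131 TPM in 5 of 24. Hspa8 (0.07), Hsph1 (0.16) and Dnajb1 (0.08) did not pass. With the number of genes above 0 TPM as a term, 0 of 10 heart members passed, and the number differed between treatments with no overlap (22988 to 28331 genes under normoxia, 20316 to 22793 after IH).

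In the liver Hsp90ab1 fell by 0.41 (limma adjusted p = 0.00457) and Hspd1 by 0.45 on the log2 scale (0.00181). For each, 14 of 24 libraries after IH were below the lowest normoxia library, 281 TPM for Hsp90ab1 and 126 TPM for Hspd1. Hsp90aa1 (-0.54, limma adjusted p = 0.0671) and Hspa1b (-0.70, 0.155) had larger values that did not pass, and both passed when time point was added as a term (limma adjusted p = 0.00202 and 0.0375). As in the lung, libraries numbered 3 stood apart, with 0.10 for Hsp90ab1 and 0.05 for Hspd1 against -0.74 and -0.73 in number 1. The summed liver markers had medians of 37148 and 40902 TPM in IH numbers 1 and 2 and of 63441 TPM in number 3, against 60159 TPM under normoxia. Kidney markers in the liver libraries had a median of 90.4 TPM (range 41.5 to 447) after IH and of 3.85 TPM (0.834 to 121) under normoxia, where number 3 had a median of 109 TPM. The part of these markers in the liver changes was not tested. In the kidney Hspb1 rose by 0.45 on the log2 scale (limma adjusted p = 0.0138), from 31.01 ± 11.2 to 42.2 ± 17.3 TPM (SD, n = 24 each), with 20 of 24 libraries after IH above the normoxia median and log2 differences of 0.36, 0.37 and 0.62 in the 3 replicate numbers. Kidney Hspb1 did not pass with TPM as deposited (0.41, limma adjusted p = 0.0641) or without replicate number 3.

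Whether the response to IH differed among tissues was tested directly for the 9 members that averaged at least 1 TPM in each tissue. It differed for 6, Hspd1, Hsp90ab1, Hspe1, Hsp90aa1, Hspb1 and Hspa1b, with limma adjusted p from 3.44e-14 to 0.0165, and was not detectable for Hspa8 (adjusted p = 0.052), Dnajb1 (0.0564) and Hsph1 (0.115). Among all genes so tested 89.2% differed, a larger share than the 6 of 9 members.

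At the main settings the partners of the mitochondrial chaperonin parted company in the heart and, less clearly, in the liver. Both were lower in the lung, where Hspe1 was at -0.003 with TPM as deposited. Hspd1 encodes the barrel and Hspe1 the lid of the same complex, and the element printed above lies in a promoter window of each, yet in the heart Hspd1 rose by 0.23 while Hspe1 fell by 0.31 on the log2 scale (limma adjusted p = 0.000737). The heart values depended on the setting. Over the alternatives they kept their signs, from 0.04 to 0.36 for Hspd1 and from -0.38 to -0.05 for Hspe1. With the number of genes above 0 TPM as a term neither passed in the heart. Without replicate number 1 Hspe1 did not pass there. In the liver Hspd1 fell and Hspe1 had 0.36 (limma adjusted p = 0.0927, and 0.0366 without the liver library of low markers). The log2 ratio of Hspe1 to Hspd1 was 1.16 ± 0.30 in the normoxic heart and 0.62 ± 0.30 after IH, and in the liver it was 0.64 ± 0.36 and 1.45 ± 1.08 (SD, n = 24 each). The liver ratio after IH ran from 0.14 to 3.59, against -0.01 to 1.40 under normoxia. Across the 12 groups of 24 libraries, with the mean of each tissue and treatment taken away, the pair had a correlation of -0.09, while Hspd1 and Hsp90ab1 had 0.79. By tissue the pair had -0.45 in the liver, -0.04 in the lung and between 0.10 and 0.28 in the other tissues. Hspd1 and Hsp90ab1 ranged from 0.38 in muscle to 0.95 in the lung.

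**Figure D3:**
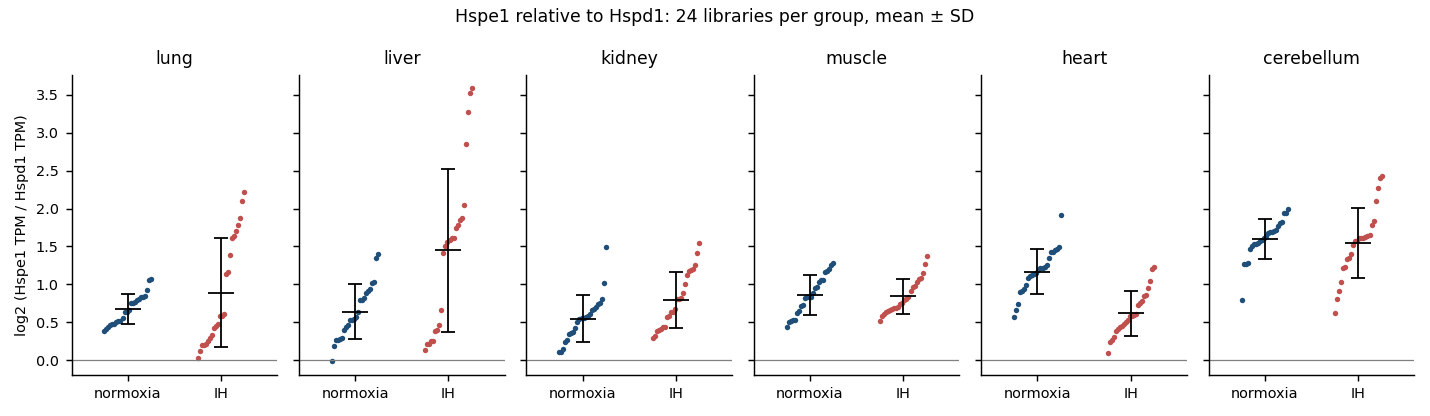
Log2 ratio of Hspe1 to Hspd1 TPM in each library by tissue and treatment (points: libraries; bars: means of 24). The ratio is lower after IH in the heart, from a mean of 1.16 to 0.62, and spreads from 0.14 to 3.59 in the liver after IH.

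Over the circadian cycle, the inducible HSP70 genes peaked sharply at CT 13:30, shortly after the start of the subjective night. In the normoxic lung the 3 libraries of CT 13:30 had Hspa1b at 66.8, 71.4 and 56.6 TPM, while the 21 libraries of the other times lay between 3.77 and 36.1 TPM. In the liver they had 35.96, 73.6 and 56.7 TPM against 2.17 to 13.9 TPM, and in the kidney 46.0, 150 and 52.1 TPM against 9.70 to 29.7 TPM. The libraries of CT 13:30 did not overlap the others in these 3 organs. The ratio of the mean at CT 13:30 to the mean of the other times was 7.10 in the lung, 8.84 in the liver and 4.35 in the kidney. For Hspa1a it was 6.59, 14.4 and 5.03, with liver values of 3.62, 8.39 and 6.53 TPM at CT 13:30 and at most 0.705 TPM at other times.

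This time point was singled out after the values were seen. Its 3 normoxia libraries lay above the 21 others for 2 of 10 members in the lung (Hspa1a and Hspa1b), 2 of 9 tested in the liver (Hspa1b and Dnajb1) and 3 of 10 in the kidney (Hspa1a, Hspa1b and Dnajb1), and for 0 of 10 in muscle, heart and cerebellum. Hspa1a in the liver, under the minimum level, was also without overlap. Of all tested genes this held for 0.266% of lung, 0.671% of liver, 0.178% of kidney, 0.140% of muscle, 0% of heart and 0% of cerebellum genes. Dnajb1, whose product feeds clients to HSP70, had 18.6 to 23.3 TPM at CT 13:30 in the liver against at most 11.8 at other times, and 32.6 to 50.0 TPM in the kidney against at most 24.4. A test for any difference among the 8 times gave limma adjusted p of 0.0374 in the lung, 0.0146 in the liver and 0.0381 in the kidney for Hspa1b, and of 6.65e-05 for Dnajb1 in the kidney.

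**Figure D4:**
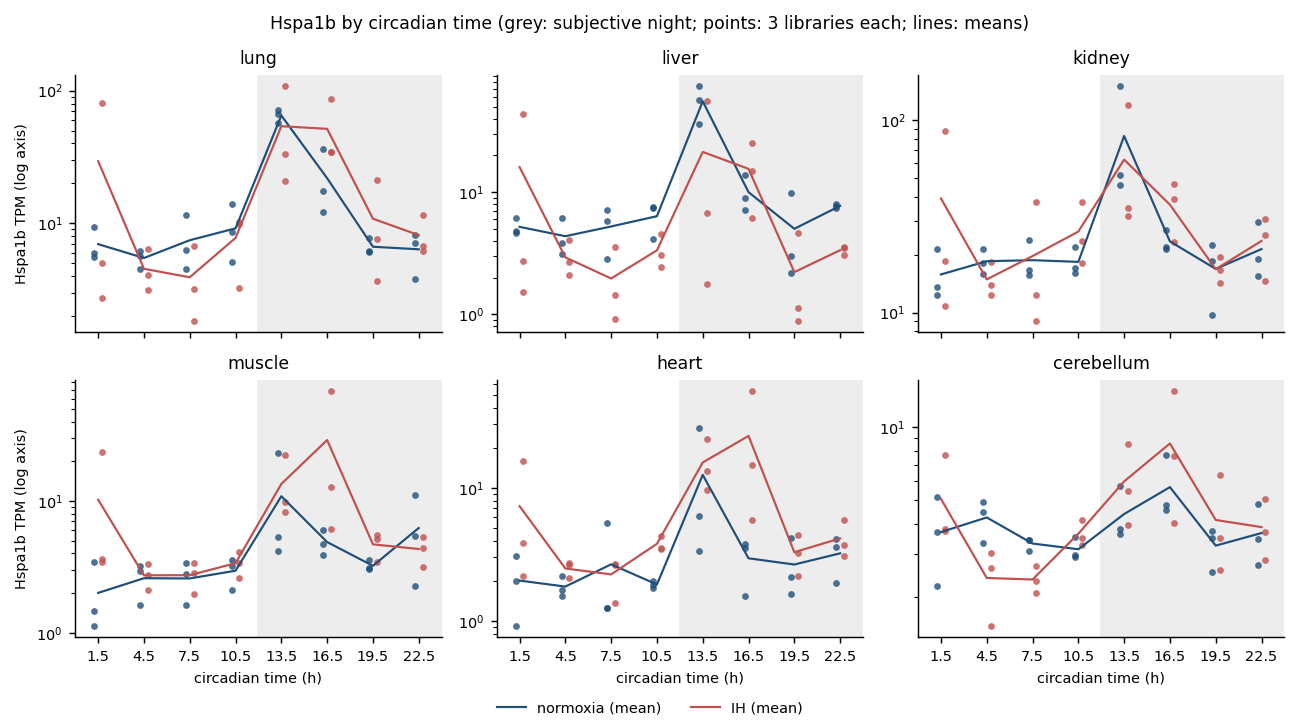
Hspa1b in TPM against circadian time for each tissue, with a point for each of the 3 libraries per time and a line through the means of each treatment; the subjective night is shaded. Normoxia libraries at CT 13:30 stand above all other normoxia libraries in the lung, liver and kidney. After IH a single library at CT 1:30 reaches their range in each of these organs. A single IH library at CT 16:30 reaches it in the lung and, barely, in the kidney, but not in the liver.

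After IH this separation was present for 0 of 10 members in each tissue. It was rare among all tested genes too, at 0.00648% of lung, 0.0176% of liver, 0.0233% of kidney, 0.125% of muscle, 0.0861% of heart and 0.0403% of cerebellum genes. At CT 13:30 the IH libraries had Hspa1b at 20.9, 33.1 and 108 TPM in the lung, 6.74, 1.78 and 55.5 in the liver, and 34.7, 31.9 and 120 TPM in the kidney, so that replicate 3 was as high as normoxia and the others were lower. The liver value of 1.78 TPM is from the library of low liver markers. High values also appeared at other times. At CT 1:30 replicate 3 had Hspa1b at 80.5 TPM in the lung against 5.05 and 2.76 in the other replicates, and it had 43.9 against 1.52 and 2.72 in the liver, 88.1 against 10.8 and 18.6 in the kidney, 23.6 against 3.46 and 3.60 in muscle and 15.8 against 3.83 and 2.18 TPM in the heart. At CT 16:30 replicate 1 was the highest of 24 IH libraries in muscle (68.2 TPM), heart (53.1) and cerebellum (14.1) and the second highest in the lung (86.0), but not in the liver (6.19). The numbers thus ran together across organs: deviations of same-numbered libraries correlated over 48 libraries with a median r of 0.54 over the 15 pairs of tissues for Hspa1b, 0.48 for Hspa1a and 0.29 for Dnajb1, and with 0.03 for Hspd1.

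A 24-hour cosine curve was then fitted to each member. Under normoxia 11 of 59 pairs of member and tissue were rhythmic, 3 of 10 in the lung, 3 of 9 in the liver, 5 of 10 in the kidney and 0 of 10 in muscle, heart and cerebellum. After IH 22 of 59 were rhythmic (lung 7, muscle 7, liver 3, kidney 3, heart 2 and cerebellum 0), and 9 pairs were rhythmic in both. The background under normoxia was 4.09% of lung, 5.73% of liver, 11.2% of kidney, 5.70% of muscle, 1.57% of heart and 0.00672% of cerebellum genes. After IH it was 8.56% of lung, 7.53% of liver, 10.0% of kidney, 11.97% of muscle, 2.28% of heart and 0.0403% of cerebellum genes.

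The curves that passed, 33 in all, peaked in the subjective night between CT 14.2 and CT 20.8, and their medians differed among members. By the median of their called peaks, Dnajb1 (CT 15.3), Hspa1b (CT 16.1) and Hspa1a (CT 16.1) came first, then Hsph1 (CT 16.8), and later Hsp90ab1 (CT 18.5), Hspb1 (CT 18.5) and Hsp90aa1 (CT 18.6). These medians join curves from different tissues and treatments, and the 3 of Hspa1a were all after IH. The order was not tested. Hspd1 was rhythmic in 0 tissues and Hspe1 only in the normoxic kidney among the 12 groups (1.57-fold, peak CT 17.7, limma adjusted p = 0.00744). Hspa8 passed only in muscle after IH among the 12 (1.69-fold, CT 19.3, adjusted p = 0.000464). Over its 10 fits outside the cerebellum, called or not, the median peak of Hspa8 was earlier, at CT 15.9.

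**Figure D5:**
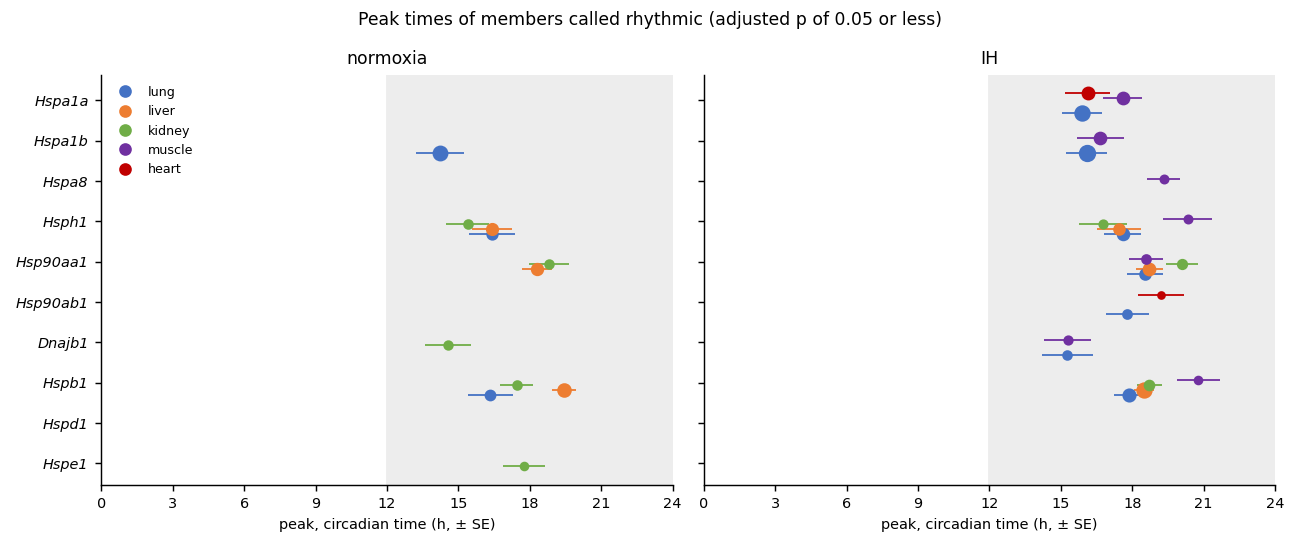
Peak time in hours of circadian time of each fitted 24-hour curve that passed the test, by member, with a panel for each treatment. Colour marks the tissue, and larger markers a larger fold between peak and trough. The 33 peaks lie between CT 14.2 and CT 20.8, and by their medians Dnajb1, at CT 15.3, is earlier than the HSP90 genes and Hspb1, at CT 18.5 to CT 18.6, with the single Hspa8 curve at CT 19.3.

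The deepest rhythm with a small error was that of Hspb1 in the liver. Under normoxia its 3 libraries at CT 7:30 had 24.3, 22.3 and 30.9 TPM and those at CT 16:30 had 84.2, 117 and 112 TPM. These were its times of lowest and highest mean, picked after the values were seen, so their distance is no test. The fitted fold from trough to peak was 4.10 with the peak at CT 19.4 (limma adjusted p = 2.63e-06), and after IH it was 5.77 at CT 18.5 (1.71e-08). Hsp90aa1 in the liver behaved alike in time. Under normoxia it had 64.9, 71.7 and 72.6 TPM at CT 7:30 and 228, 247 and 265 TPM at CT 16:30. These were again the times of lowest and highest mean. Its fitted fold was 3.23 with a peak at CT 18.3 (limma adjusted p = 0.000117), and after IH 3.53 at CT 18.7 (3.21e-05). In the kidney Hspb1 had a fold of 1.89 under normoxia (CT 17.5, adjusted p = 0.00058) and 2.33 after IH (CT 18.7, 3.13e-06).

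Hsph1 was rhythmic in the lung, liver and kidney under both treatments, with folds from 1.78 to 3.34, and in muscle after IH (1.69-fold). In the normoxic lung it had 24.3, 18.3 and 17.4 TPM at CT 4:30 and 72.9, 73.1 and 65.3 TPM at CT 13:30. Both times were picked after the values were seen, and CT 4:30 had the lowest mean. The lung curve of Hspa1b had a fold of 5.26 under normoxia (CT 14.2, limma adjusted p = 0.0486) and 6.92 after IH (CT 16.1, 0.00798). In muscle, Hspa1a had 3.52 after IH (CT 17.6, adjusted p = 0.00369) against 2.24 under normoxia (0.161).

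The larger number of rhythmic pairs after IH did not come with a detectable difference of the curves. The difference between treatments was called for 0 of 59 pairs, the smallest limma adjusted p was 0.825, and the share over all genes was 0% in each tissue, so no difference in rhythm was detectable for any gene with these numbers. At an unadjusted p of 0.05, 1 of 59 pairs passed, Hspd1 in muscle (p = 0.0388 in limma), and the test for any difference over time with treatment also called 0. The fitted amplitude was higher after IH in 39 of 59 pairs, in 9 of 10 in the lung, 10 of 10 in muscle and 10 of 10 in the heart, against 2 of 9 in the liver and 4 of 10 in the kidney and cerebellum. The share of all tested genes with a higher amplitude was not computed, so these counts cannot be read as particular to the chaperones. Members of a tissue also share its libraries, so the counts are not independent. Without the 5 libraries of low markers, 15 pairs were rhythmic under normoxia and 21 after IH.

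Genes of the same folding systems were followed as lists. In the lung, 16 of 20 co-chaperones were lower after IH and 2 higher, 7 of 8 subunits of the cytosolic chaperonin TRiC were lower, as were 7 of 8 chaperones of the endoplasmic reticulum (ER) and 7 of 8 mitochondrial chaperones and proteases, by the adjusted p alone. By the same rule 41.5% of all tested lung genes were lower and 28.9% higher. The list medians were -0.38, -0.43, -0.51 and -0.24 on the log2 scale, beside -0.08 for all tested lung genes. The lists and the single genes named from them were fitted at the main settings only, on which the lung and heart values of the members depended. In the heart 7 of 8 ER chaperones and 4 of 8 mitochondrial genes were higher and 0 lower, with medians of 0.31 and 0.19 beside 0.04 for all genes. Of all tested heart genes 28.0% were higher and 17.3% lower. Muscle had 1 of 20 co-chaperones higher and 0 lower, beside 5.48% and 4.89% of all tested muscle genes.

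Of single genes on these lists, the lung fell past 1.5-fold in Bag3 (-0.67) and Stip1 (-0.65), which link HSP70 to degradation and to HSP90, in the HSP70 relative Hspa2 (-0.95), in the TRiC subunits Cct3 (-0.61) and Cct7 (-0.60), and in the ER chaperones Hspa5 (-0.65), Hsp90b1 (-0.63) and Pdia4 (-0.69), with limma adjusted p of at most 0.000207. In the liver Calr, an ER chaperone, was the only listed gene past both thresholds (-0.60, adjusted p = 0.000106). Hspa9, the mitochondrial HSP70, moved as Hspd1 did, with -0.58 in the lung (1.16e-07), -0.46 in the liver (0.00384) and 0.38 in the heart (4.52e-06). Hspa5, the ER HSP70, rose by 0.57 in the heart (2.36e-05). Hsf1 itself rose by 0.24 in the lung (limma adjusted p = 8.44e-07) and did not pass in the other 5 tissues. Among immediate early genes, Jun fell in the lung (-0.70, 3.21e-07) and Junb rose in the cerebellum (0.59, 0.000155), and among 4 clock genes used as a reference Per2 rose in the lung (0.74, 0.0201).

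Under normoxia the cold-inducible RNA-binding protein genes had called peaks before CT 14.2, the earliest called peak of a chaperone. This order was not tested. Some chaperone fits that did not pass were as early, such as Hspd1 in normoxic muscle (CT 3.69) and Hspa8 in the kidney after IH (CT 10.4). Cirbp had its fitted peak between CT 4.03 and CT 8.08 in the lung, liver, kidney, muscle and heart under normoxia. Of these fits only that in the heart passed (1.66-fold, CT 8.08, limma adjusted p = 0.035). Rbm3 passed in the normoxic lung (CT 6.96), liver (CT 12.1) and kidney (CT 12.7). In the heart both were lower after IH, Cirbp by 0.40 (0.00295) and Rbm3 by 0.54 on the log2 scale (0.00128), and in the lung Rbm3 had -0.49 (0.00113). The 4 clock genes were rhythmic under normoxia in lung, liver, kidney, muscle and heart, and 0 of 4 were in the cerebellum.

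Finally, the genes whose values ran most like those of the 10 members were found over 9877 genes and the 12 groups of 24 libraries, after the mean of each tissue and treatment was taken away. The 8 most alike were Stip1 (r = 0.84), P4ha1 (0.79), Dnaja1 (0.76), Fkbp4 (0.75), Ahsa1 (0.75), Hspa5 (0.73), Ahsa2 (0.72) and Cacybp (0.68). All but P4ha1, a collagen prolyl hydroxylase, were on the lists of co-chaperones or ER chaperones. Cirbp had -0.74, Rbm3 -0.30 and Hsf1 0.09. Within the members the closest pair was Hspa1a and Hspa1b (0.95), which share reads, followed by each with Dnajb1 (0.80). These correlations describe libraries that share time points, organs and library make-up.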

How the data were processed

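The authors quantified poly(A), strand-specific paired-end reads with Kallisto against Ensembl release 102, summed transcripts to genes, and deposited TPM, in 12 tables of 35904 genes (the submitters' notes name mm10, bcl2fastq, FastQC 0.11.3, kallisto and DESeq2). Each library sums to between 989211 and 999188 TPM, 0 pairs of libraries were identical and 0 columns were unmatched. The paper gives a median number of mapped reads over its samples. With no counts deposited, the depth of each library and the counting error are unknown. Sample tissue, treatment and time came from the labels.

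Libraries were put on 1 scale by median-of-ratios factors computed from TPM, and log2 values were made after adding 0.5. Genes that averaged 1 TPM or more in a tissue were fitted with limma 3.58.1 (R 4.3.3), with an intensity trend, all genes together, and Benjamini-Hochberg adjustment within the tissue; tests were two-sided. Treatment was the only term for mean expression (adjusted p of 0.05, with and without 1.5-fold). Rhythm was the F test of cosine and sine terms of 24 hours, with both treatments in 1 fit, and its difference between treatments an F test of both terms. The response between tissues was an F test over 288 libraries taken as independent, although several organs came from each mouse. The authors ran DESeq2 on estimated counts and MetaCycle, and neither was applied here. P-values measure the spread between libraries.

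The 10 members, the related lists and the marker lists were chosen with earlier results of these data known. Named genes are the members, the 8 genes most like them, the 3 largest called changes of each list, and Hsf1, Hspa5, Hspa9, Cirbp and Rbm3. Shared words of 31 bases and gene positions came from GENCODE mouse release 21, and promoter letters from RefSeq (GRCm38.p6). Python 3.11.15, numpy 2.4.6, pandas 2.3.3 and matplotlib 3.10.9 were used. Alternatives were TPM as deposited, other pseudocounts and filters, a term for time point, replicate number or genes above 0, a replicate block, a rank test, linear TPM, any difference between time points, and leaving out each replicate number. Leaving out the libraries of low markers, or each lung or heart library, was chosen after seeing the data. The scripts were tested on simulated data.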

Additional observations from a re-analysis of the deposited data

Results flagged for a closer look

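The response to IH differed among the 6 tissues for 6 of the 9 members tested, by an F test of the 5 treatment by tissue terms in limma, and 89.2% of all genes so tested differed as well. Hspd1 had an adjusted p of 3.44e-14, with log2 fold changes of -0.52 in the lung, -0.45 in the liver and 0.23 in the heart. Hsp90ab1 had 4.79e-09, with -0.58, -0.41 and 0.16 in the same organs. Hspe1 had 7.79e-06, with -0.31 in the lung, 0.36 in the liver and -0.31 in the heart. Hsp90aa1 had 6.52e-05 (-0.75, -0.54 and 0.34), Hspb1 had 0.00403 (-0.50, -0.09 and 0.30, and 0.45 in the kidney), and Hspa1b had 0.0165 (-0.22, -0.70 and 0.68).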

How the results depend on the processing

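For IH, 17 pairs of member and tissue passed. With TPM as deposited 13 passed, 10 of them among the 17. With the number of genes above 0 TPM as a term 12 passed, 5 of them among the 17. Of these 5, Hspb1 in the lung passed with the opposite sign. With a pseudocount of 1, 16 of the 17 passed, and without a minimum level 11 of them, where under the rule with 1.5-fold 3 became 1. With the term for genes above 0, 6 of the called lung values reversed: Dnajb1 0.38, Hsp90aa1 0.21, Hsp90ab1 0.21, Hspa8 0.25, Hspb1 0.82 (limma adjusted p = 0.00582) and Hspd1 0.18, and the cause was not tested. Leaving out 1 replicate number gave 7 to 21 pairs by adjusted p (1 to 11 with 1.5-fold), 4 to 8 rhythmic pairs under normoxia and 8 to 16 after IH. Without number 3 the 11 pairs past 1.5-fold were 5 in the lung, 5 in the liver and 1 in the cerebellum, all lower. Rhythmic pairs under normoxia were 17, not 11, by the rank test and 17 by any difference between time points. After IH they were 14, not 22, by the rank test. The rhythm difference was called for 0 pairs under each alternative that tested it.

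Same-numbered libraries of the 2 treatments deviated together (r above 0.1) in 16 of 24 pairs in the liver and 12 in muscle. In the lung, kidney, heart and cerebellum this held for 5, 6, 8 and 7 of 24. The median r was 0.22 in the liver, 0.10 in muscle and between -0.14 and 0.03 in the others. The main fits took the samples as unpaired, and whether the numbers pair them in the liver or muscle was not tested. With a replicate block the counts were 22 pairs by adjusted p (4 with 1.5-fold), with Hsp90aa1 (limma adjusted p = 0.0048), Hspa1b (0.0328) and Hspe1 (0.0343) called in the liver in addition, 15 rhythmic pairs under normoxia and 26 after IH, 0 for the rhythm difference and 9 members for the response between tissues, which ranged from 4 to 9 over the alternatives. The depth of each library is unknown from TPM and limits the low values of Hspa1a in the liver.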
